A study of Arabidopsis thaliana with 6 samples.

Results

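Glutathione synthesis, reduction, transport and breakdown were followed through 10 Arabidopsis thaliana genes, chosen by identifier from the 32833 genes of the count table, of which 25364 had enough counts to be tested. The 10 were GSH1 (AT4G23100) and GSH2 (AT5G27380) for synthesis, GR1 (AT3G24170) and GR2 (AT3G54660) for reduction, CLT1 (AT5G19380), CLT2 (AT4G24460) and CLT3 (AT5G12170) for transport, and GGCT2;1 (AT5G26220), OXP1 (AT5G37830) and GGT1 (AT4G39640) for breakdown. All 10 passed the filter on low counts. Between the 2n and the 4n gate, transcripts of GSH2, both reductases and OXP1 rose 1.55- to 2.16-fold, while those of GGCT2;1, CLT2 and GGT1 fell. The calls of OXP1 and CLT2 were lost in 5 and 4 of 17 alternative fits, and OXP1 stood at log2 0.11 in 1 of them. Those of the other genes held in all 17. The steepest member was GGCT2;1, a cytosolic enzyme that degrades glutathione, whose level was 8.30-fold higher in the 2n gate than in the 4n gate.

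Glutathione is a tripeptide of glutamate, cysteine and glycine, built in plants in sequential steps by glutamate-cysteine ligase in plastids and glutathione synthetase in plastids and cytosol, and kept in its reduced form by NADPH-dependent reductases. Chloroquine-resistance-transporter-like proteins move glutathione and its precursor between plastid and cytosol, and the molecule is taken apart by cytosolic glutamylcyclotransferases and, outside the cytosol, by gamma-glutamyl transpeptidases. In roots the first enzyme is known for its mutant root meristemless1, in which the meristem stops dividing, and glutathione is known to be recruited into the nucleus early in the division cycle of cultured Arabidopsis cells.

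The series profiled protoplasts of root tips from 7-day-old seedlings by bulk RNA sequencing, after fluorescence-activated sorting on DNA content. All 3 gates came from a single genotype, Col0/H2B-RFP/CDT1a-GFP, which carries fluorescent fusions of a histone and of a replication licensing factor. Cells with 2n content were labelled G1, cells between 2n and 4n were labelled S, and cells with 4n content were labelled G2M, with 2 libraries each. DNA content does not separate cycling cells from endocycling or arrested cells of the same content, the labels do not say whether the libraries of a gate came from separate plants, and p-values therefore measure only the spread between these libraries. The promoters driving the fusions are not given in the labels. In bulk samples, fewer cells of a type and less RNA per cell cannot be told apart.

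Library totals ran from 13114711 counts in S replicate 2 to 208406910 in S replicate 1, so that 3 counts correspond to 0.0144 to 0.229 CPM (counts scaled to the same library total). The 5 mitosis markers (CYCB1;1, CDKB2;1, KNOLLE, CYCA1;1 and AUR1) summed to 22.6 to 34.4 CPM in G1, 348 to 378 in S and 398 to 412 in G2M, and none of the 5 was called between S and G2M. The 5 replication markers went against the label of the S gate: their sum was lowest there, at 262 and 368 CPM, against 473 and 489 in G1 and 451 and 500.5 in G2M. Root meristem markers (5 genes) summed to 193 to 241 CPM over the 6 libraries, a range within which single genes moved in opposite directions. Leaf mesophyll markers (5 genes) summed to 1.88 to 5.40 CPM. The 4 root cap markers summed to 461 and 539 CPM in G1, 359 and 368 in S, then 100 and 109 in G2M. The 4 phloem markers summed to 63.0 and 70.3 CPM in G1, 16.0 and 24.1 in S, then 12.8 and 13.6 in G2M, NAC086 being at 0 in S replicate 2. The mitochondrial share of counts was 6.53% and 8.23% in the G1 libraries and 2.94% to 3.67% in the others.

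Upstream windows are shown for the 4 members in which a searched motif occurred, because these windows lie beside genes that moved in opposite directions (GSH2 and GGT1) or carry the motif named for sulfur response (CLT1 and GGCT2;1). Each window is the 250 bases before the annotated gene start, 5′ to 3′ on the gene's own strand, from the RefSeq TAIR10.1 genome, and capitals mark the match. The windows are chr5:9671016-9671265 (minus strand) for GSH2, chr4:18399673-18399922 (plus strand) for GGT1, chr5:6530714-6530963 (minus strand) for CLT1 and chr5:9164885-9165134 (minus strand) for GGCT2;1.
GSH2: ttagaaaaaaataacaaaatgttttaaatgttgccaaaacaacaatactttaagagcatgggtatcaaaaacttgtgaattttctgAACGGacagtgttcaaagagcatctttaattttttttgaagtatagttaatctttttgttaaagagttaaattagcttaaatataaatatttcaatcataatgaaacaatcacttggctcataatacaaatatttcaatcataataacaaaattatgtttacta
GGT1: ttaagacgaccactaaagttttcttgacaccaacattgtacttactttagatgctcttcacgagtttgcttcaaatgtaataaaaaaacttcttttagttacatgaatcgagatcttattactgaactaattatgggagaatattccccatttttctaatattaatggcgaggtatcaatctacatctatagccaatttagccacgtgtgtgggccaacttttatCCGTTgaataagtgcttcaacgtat
CLT1: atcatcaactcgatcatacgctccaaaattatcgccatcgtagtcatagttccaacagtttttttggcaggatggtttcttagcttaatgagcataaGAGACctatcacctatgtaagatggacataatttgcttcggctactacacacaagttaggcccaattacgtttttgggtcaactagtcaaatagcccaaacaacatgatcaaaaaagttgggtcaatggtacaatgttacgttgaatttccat
GGCT2;1: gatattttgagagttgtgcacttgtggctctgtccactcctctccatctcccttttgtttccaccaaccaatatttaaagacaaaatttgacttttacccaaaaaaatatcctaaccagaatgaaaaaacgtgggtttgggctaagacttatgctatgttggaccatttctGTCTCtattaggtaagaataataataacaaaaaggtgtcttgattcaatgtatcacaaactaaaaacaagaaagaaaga
The AACGG core of mitosis-specific activator elements, searched on both strands, stood 164 to 160 bases before the start of GSH2 and, as CCGTT, 25 to 21 bases before that of GGT1. Of 27437 upstream windows of this length in the genome, 20.6% held it. The GAGAC core of sulfur-responsive elements stood 153 to 149 bases before CLT1 and, as GTCTC, 79 to 75 bases before GGCT2;1, and 25.8% of all windows held it. The E2F letters TTTCCCGC (0.62% of all windows) and TTTGGCGC (0.361%) and the TGA factor core TGACG (18.6%) were in none of the 10 windows. All 250 bases of the GR1 window lay within the neighbouring gene AT3G24180, and 215 of those of CLT2 within PWD. A match describes letters in a window and not a bound site.

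**Figure D1:**
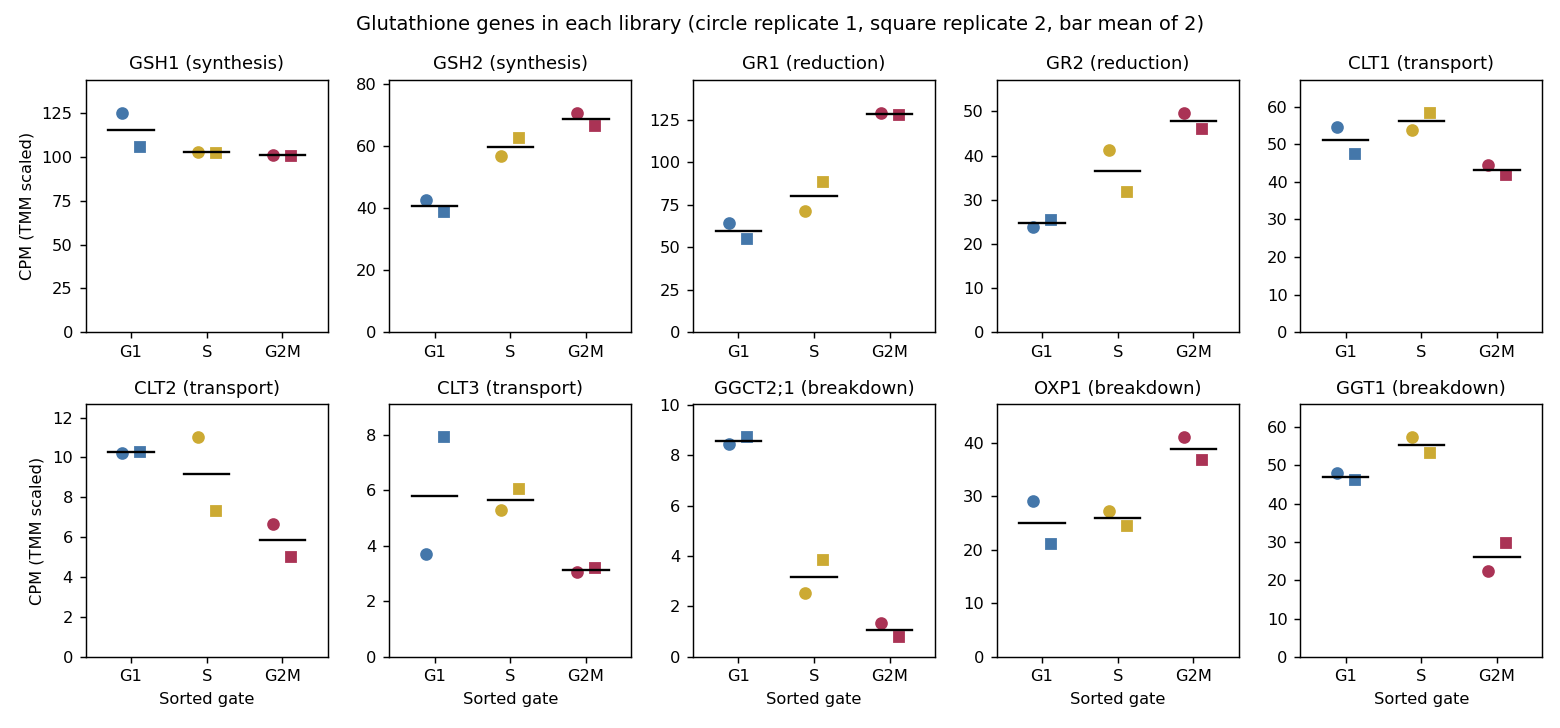
Level of each glutathione gene (CPM scaled by TMM factors, vertical axis from 0) in the 3 sorted gates, with 1 point per library and a bar at the mean of 2. GSH2, GR1 and GR2 stand highest in G2M, GGCT2;1 descends from 8.58 CPM in G1 to 1.07 in G2M, and GGT1 descends only between S and G2M.

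The 2 genes of synthesis behaved differently. GSH1, which encodes glutamate-cysteine ligase and lies at chr4:12102135-12107695 on the minus strand, had 125 and 106 CPM in G1, 103 and 102 in S, then 101 and 101 in G2M. The libraries were within a narrow range, with G1 replicate 1 the highest, and although G1 stood above both other gates no comparison passed the test. Its log2 fold change was -0.17 ± 0.13 (SE) in S versus G1 (edgeR adjusted p = 0.413), -0.02 ± 0.13 in G2M versus S (adjusted p = 0.913) and -0.19 ± 0.13 in G2M versus G1 (adjusted p = 0.236). With upper-quartile factors, which lower the median of all genes, GSH1 passed the threshold in S versus G1 (log2 -0.35, edgeR adjusted p = 0.034) and in G2M versus G1 (-0.41, adjusted p = 0.0093). With limma on log2(TPM + 1) it also passed in G2M versus G1 (-0.31, adjusted p = 0.0366).

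GSH2, which encodes glutathione synthetase and lies at chr5:9667912-9671015 on the minus strand, had 42.5 and 38.7 CPM in G1, 56.6 and 62.7 in S, then 70.7 and 66.3 in G2M. The gates formed 3 separate steps, each with both libraries above those of the gate before. From G1 to S the gene rose by 0.55 ± 0.13 on the log2 scale (edgeR adjusted p = 0.0096), and from G1 to G2M by 0.75 ± 0.13 (adjusted p = 0.000545), or 1.69-fold. The step from S to G2M was 0.20 ± 0.13 and was not called (adjusted p = 0.292). The call in S versus G1 was lost without G1 replicate 2 (log2 0.48, edgeR adjusted p = 0.117) and in a fit of only the 4 libraries compared (0.47, adjusted p = 0.0688), and stood at 0.37 with upper-quartile factors (adjusted p = 0.0314). In G2M versus G1 the call stood in all 17 alternative fits, at log2 values of 0.53 to 0.82.

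Set per length as TPM (a library's counts divided by exon length and scaled to a fixed sum), and within each library so that library scaling cancels, GSH2 stood at 0.467 and 0.504 of GSH1 in G1, 0.756 and 0.844 in S, then 0.962 and 0.905 in G2M. The libraries of the 3 gates did not overlap in this ratio, and in G2M the transcripts of both steps were near parity. The difference of the log2 ratio was 0.94 between G2M and G1 and 0.72 between S and G1. With 2 libraries against 2 the exact two-sided permutation test cannot give a p below 0.333, which is what it gave for each of the 3 comparisons.

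Both reductases, which recycle oxidised glutathione with NADPH, rose from the 2n to the 4n gate. GR1, the cytosolic and peroxisomal enzyme at chr3:8729354-8734624 on the minus strand, had 64.4 and 54.7 CPM in G1, 71.5 and 88.5 in S, then 129 and 128 in G2M. Each gate lay above the one before, and G2M stood well apart. The gene rose 1.62-fold from S to G2M (log2 0.69 ± 0.14, edgeR adjusted p = 0.00536) and 2.16-fold from G1 to G2M (1.11 ± 0.14, adjusted p = 4.49e-05). The step from G1 to S just missed the threshold (0.42 ± 0.14, edgeR adjusted p = 0.0514). That step passed in 6 alternatives, among them DESeq2 (0.37, adjusted p = 0.0379) and the fit without S replicate 1 (0.57, adjusted p = 0.0103). Without G2M replicate 1 the call in G2M versus S was lost (0.72, edgeR adjusted p = 0.0577), whereas the call in G2M versus G1 stood in all 17 alternatives (0.87 to 1.24). The exons of GR1 overlap those of the opposite-strand gene PMP by 74 bases, 3.19% of their length, and whether counting used strand is not given in the sources used here. They also share 14 bases (0.604%) with the same-strand gene AT3G24180.

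GR2, the plastid and mitochondrial enzyme at chr3:20229637-20233211 on the minus strand, had 23.9 and 25.5 CPM in G1, 41.3 and 31.8 in S, then 49.7 and 46.1 in G2M. The gates did not overlap, and the libraries of S lay furthest apart. GR2 rose from G1 to S by 0.58 ± 0.16 (edgeR adjusted p = 0.0178) and from G1 to G2M by 0.96 ± 0.16 (adjusted p = 0.000325), which is 1.94-fold. The difference between S and G2M, 0.38 ± 0.16, was not called (adjusted p = 0.107). The call in S versus G1 was lost without G1 replicate 1 (0.53), G1 replicate 2 (0.62) or S replicate 1 (0.37), fits that leave a gate with 1 library. Leaving out either G1 library also lowered the number of calls over all genes in this comparison. The GR2 call was lost as well with upper-quartile factors (0.41, edgeR adjusted p = 0.0989) and with libraries thinned to the smallest total (0.46, adjusted p = 0.0555). The same held with GC and length offsets (0.28, edgeR adjusted p = 0.281) and in the fit of only 4 libraries (0.49, adjusted p = 0.0932). Without S replicate 1 the step from S to G2M passed instead (0.59, edgeR adjusted p = 0.0281). The call in G2M versus G1 stood in all 17 alternatives, at 0.65 to 1.01.

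The balance of the reductases did not separate the gates. Per length, GR1 stood at 2.71 and 2.16 times GR2 in G1, 1.74 and 2.79 in S, then 2.62 and 2.80 in G2M. The ratios of every pair of gates overlapped, and the widest spread was between the libraries of S.

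None of the 3 transporters of the plastid envelope rose in any comparison. CLT1, at chr5:6526807-6530713 on the minus strand, had 54.6 and 47.5 CPM in G1, 53.7 and 58.4 in S, then 44.5 and 41.9 in G2M. G1 and S overlapped and G2M was lowest. The log2 difference was 0.13 ± 0.14 in S versus G1 (edgeR adjusted p = 0.589), -0.38 ± 0.14 in G2M versus S (adjusted p = 0.0726) and -0.24 ± 0.14 in G2M versus G1 (adjusted p = 0.172). Both comparisons with G2M passed with upper-quartile factors (-0.41, edgeR adjusted p = 0.0272, against S, and -0.46, adjusted p = 0.00727, against G1) and with limma on log2(TPM + 1) (-0.50, adjusted p = 0.00937, and -0.35, adjusted p = 0.023). Thinned libraries gave a call in G2M versus S (-0.44, edgeR adjusted p = 0.0331), and GC and length offsets gave one in G2M versus G1 (-0.47, adjusted p = 0.00937).

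CLT2, at chr4:12642844-12645501 on the plus strand, had 10.2 and 10.3 CPM in G1, 11.01 and 7.29 in S, then 6.66 and 5.03 in G2M. The gene was lowest in both G2M libraries, and the S libraries straddled those of G1. From G1 to G2M it fell by 0.82 ± 0.26 on the log2 scale (edgeR adjusted p = 0.0249), so that G1 was 1.77-fold higher. The other differences were -0.14 ± 0.26 in S versus G1 (edgeR adjusted p = 0.798) and -0.69 ± 0.27 in G2M versus S (adjusted p = 0.0887). The call in G2M versus G1 was lost on leaving out any of the 4 libraries compared: G1 replicate 1 (-0.82), G1 replicate 2 (-0.82), G2M replicate 1 (-1.01) or G2M replicate 2 (-0.63). Calls over all genes in this comparison were also fewer in each of these fits. G2M versus S passed without S replicate 2 (-0.88, edgeR adjusted p = 0.0141) and with limma-voom (-0.92, adjusted p = 0.0316).

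CLT3, at chr5:3931349-3935142 on the plus strand and the weakest of the transporters, had 3.71 and 7.91 CPM in G1, 5.30 and 6.04 in S, then 3.07 and 3.22 in G2M. Both G2M libraries were lowest, but the libraries of G1 differed so much that one lay below S and the other above it. The log2 difference was -0.04 ± 0.36 in S versus G1 (edgeR adjusted p = 0.964), -0.84 ± 0.38 in G2M versus S (adjusted p = 0.136) and -0.88 ± 0.37 in G2M versus G1 (adjusted p = 0.0792). G2M versus G1 passed without G1 replicate 1 (-1.33, edgeR adjusted p = 0.019), with upper-quartile factors (-1.11, adjusted p = 0.0415), with thinned libraries (-1.05, adjusted p = 0.0336) and with GC and length offsets (-1.11, adjusted p = 0.0413). CLT3 shared a stretch of 489 bases at 83.8% identity with CLT1, and reads from that stretch could in part have been assigned to either copy.

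Per length, CLT1 exceeded CLT2 by 4.84 and 4.21 times in G1, 4.44 and 7.29 in S, then 6.07 and 7.57 in G2M. The ratio in G2M lay above that in G1 in both libraries, by 0.59 on the log2 scale (exact two-sided permutation p = 0.333), and S overlapped both gates. CLT1 exceeded CLT3 by 14.2 and 5.81 times in G1, 9.81 and 9.36 in S, then 14.0 and 12.6 in G2M. Here the libraries of G1 spanned those of both other gates.

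The breakdown genes moved in opposite directions. GGCT2;1, a cytosolic gamma-glutamyl cyclotransferase that cleaves glutathione to 5-oxoproline and cysteinyl-glycine and is known as a sulfur-starvation gene, lies at chr5:9162969-9164884 on the minus strand. Its CPM was 8.45 and 8.71 in G1, 2.53 and 3.84 in S, then 1.33 and 0.804 in G2M. The gates made 3 descending steps without overlap. Behind the G2M values stood 20 and 24 counts, whose exact 95% Poisson intervals, which cover counting error only, were 0.814 to 2.06 CPM and 0.515 to 1.20 CPM. Those intervals overlap each other and lie below both S libraries.

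From G1 to S, GGCT2;1 fell by 1.47 ± 0.35 on the log2 scale (edgeR adjusted p = 0.00969), and from S to G2M by 1.58 ± 0.40 (adjusted p = 0.0156). From G1 to G2M it fell by 3.05 ± 0.39 (edgeR adjusted p = 4.97e-05). The first step was not called without G1 replicate 1 (-1.48) or G1 replicate 2 (-1.44), at nearly the same log2 values. Calls over all genes were fewer in these fits too. The step from S to G2M was lost without G2M replicate 2 (-1.21, edgeR adjusted p = 0.176), with limma-voom (-1.41, adjusted p = 0.0718) and with only 4 libraries fitted (-1.61, adjusted p = 0.076). G2M versus G1 was called in all 17 alternatives, at -3.39 to -2.46. Its nearest relative in sequence, GGCT2;2 (AT4G31290), matched at 76.1% over 498 bases. GGCT2;2 was far more abundant, with 142 and 122 CPM in G1, 136 and 143 in S, then 148 and 149 in G2M. It was not called in any comparison.

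GGT1, an apoplastic gamma-glutamyl transpeptidase at chr4:18399923-18403067 on the plus strand, had 47.9 and 46.1 CPM in G1, 57.4 and 53.2 in S, then 22.3 and 29.8 in G2M. Both G2M libraries were below every other library, and S was the highest gate. GGT1 fell from S to G2M by 1.08 ± 0.16 on the log2 scale (edgeR adjusted p = 0.000675), S being 2.11-fold higher, and from G1 to G2M by 0.84 ± 0.16 (adjusted p = 0.000848). S versus G1 was 0.24 ± 0.15 and was not called (edgeR adjusted p = 0.341). Both calls stood in all 17 alternatives, between -1.31 and -0.86 for G2M versus S and between -1.08 and -0.64 for G2M versus G1. GGT1 matched its neighbour GGT2 over 1731 bases at 85.7% identity, so that some reads of the pair could have been assigned to either.

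OXP1, which encodes 5-oxoprolinase, the enzyme that returns 5-oxoproline to glutamate, lies at chr5:15056188-15060866 on the minus strand. It had 29.1 and 21.1 CPM in G1, 27.2 and 24.6 in S, then 41.1 and 36.7 in G2M. Both G2M libraries were above all others, and S fell inside the range of G1. OXP1 rose from S to G2M by 0.58 ± 0.18 on the log2 scale (edgeR adjusted p = 0.0375) and from G1 to G2M by 0.63 ± 0.17 (adjusted p = 0.0114), while S versus G1 was 0.05 ± 0.17 (adjusted p = 0.9). Neither call held throughout. In G2M versus S the call was lost without S replicate 1 (0.67, edgeR adjusted p = 0.0622), G2M replicate 1 (0.54, adjusted p = 0.208) or G2M replicate 2 (0.66, adjusted p = 0.109), with thinned libraries (0.54, adjusted p = 0.0558) and with limma on log2(TPM + 1) (0.42, adjusted p = 0.183). In G2M versus G1 it was lost without G1 replicate 2 (0.42, edgeR adjusted p = 0.148) or G2M replicate 1 (0.57, adjusted p = 0.0962), with upper-quartile factors (0.41, adjusted p = 0.0675), with limma on log2(TPM + 1) (0.48, adjusted p = 0.0844) and with GC and length offsets (0.11, adjusted p = 0.606).

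Per length, OXP1 stood at 0.946 and 0.664 of GGCT2;1 in G1, 2.96 and 1.75 in S, then 8.46 and 12.6 in G2M. OXP1 was thus the scarcer of this pair in the 2n gate, though near parity in G1 replicate 1. It was the more abundant of the pair in both others, and no gates overlapped. The log2 ratio differed by 3.70 between G2M and G1, by 1.52 between S and G1 and by 2.18 between G2M and S (exact two-sided permutation p = 0.333 for each). GGT1 stood at 2.79 and 2.60 times GGCT2;1 in G1, 11.1 and 6.79 in S, then 8.22 and 18.2 in G2M. This ratio was higher in S and in G2M than in G1, by 1.69 and 2.18 on the log2 scale, and overlapped between S and G2M.

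**Figure D2:**
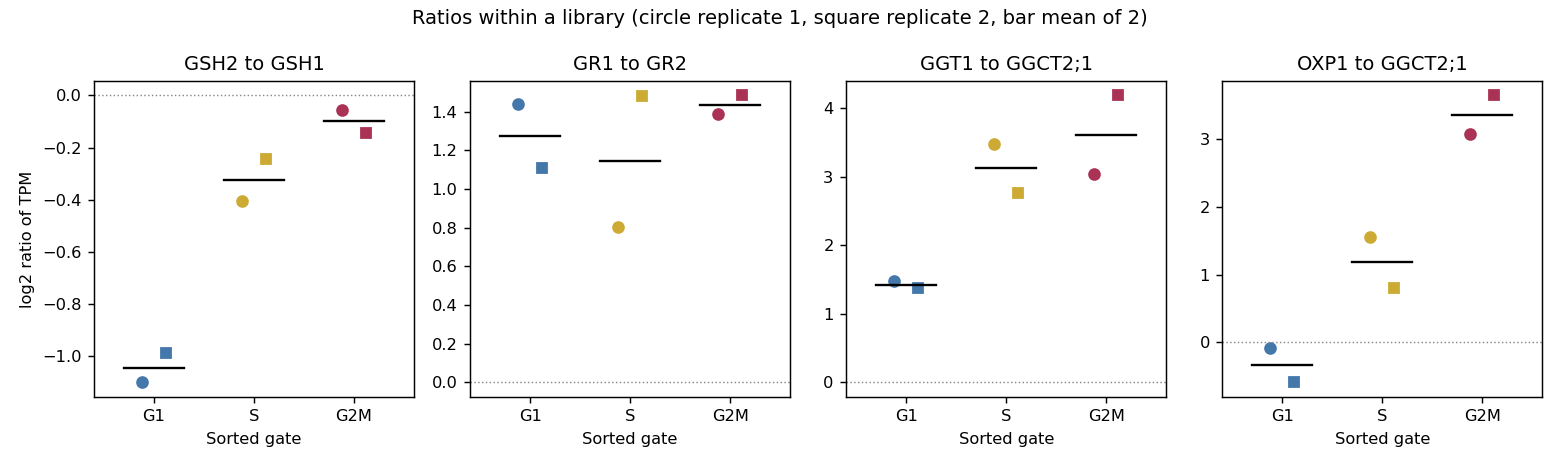
Log2 ratio of TPM between pairs of glutathione genes within each library (vertical axis, 1 panel per pair, points are libraries, bars are means of 2). GSH2 to GSH1 and OXP1 to GGCT2;1 climb gate by gate without overlap, whereas GR1 to GR2 overlaps between all gates.

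Ordered by TPM, GSH1 led in G1 with a mean of 70.0, followed by GR1 (43.3) and CLT1 (43.0), whose libraries overlapped. GSH2 (33.9) and GGT1 (31.9) came next, then GR2 (17.9), GGCT2;1 (11.9), OXP1 (9.52), CLT2 (9.51) and CLT3 (5.09), and the libraries of OXP1 and CLT2 overlapped. In G2M the order opened with GR1 (86.1), ahead of GSH1 (56.3) and GSH2 (52.5), and closed with CLT2 (4.98), CLT3 (2.51) and GGCT2;1 (1.36). Between them stood CLT1 (33.4) and GR2 (31.9), then GGT1 (16.2) and OXP1 (13.6), and the libraries of each of these pairs overlapped. GGCT2;1 thus went from rank 7 of the 10 in G1 to rank 10 in S and G2M. In S its libraries (3.68 and 5.13 TPM) overlapped those of CLT3 (4.85 and 5.08). Over all 6 libraries the mean TPM of GSH1, 63.0, exceeded that of 89.4% of the tested nuclear genes, and that of CLT3, 4.19, exceeded 40.2%.

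Counted together, 7 of the 10 members were called in at least 1 comparison, and GSH1, CLT1 and CLT3 in none. In S versus G1, GSH2 and GR2 rose and GGCT2;1 fell, 3 of 10, where 21.2% of all tested genes were called (13.9% rose and 7.28% fell). In G2M versus S, GR1 and OXP1 rose and GGCT2;1 and GGT1 fell, 4 of 10, against 19.6% of all genes (9.46% rose and 10.1% fell). In G2M versus G1, 4 rose and 3 fell, 7 of 10, against 40.3% of all genes (23.2% rose and 17.1% fell). In every called comparison the libraries of the gates did not overlap. In S versus G1, 4 members were higher and 2 lower without overlap, beside 30.2% and 25% of all genes. In both comparisons with G2M none of the 10 members overlapped, 4 being higher in G2M and 6 lower. Over all genes both G2M libraries were above both of S in 28.6% and below in 31.4%, and above both of G1 in 36.4% and below in 42.0%. The 3 comparisons share their libraries pairwise, so that these counts are not independent of each other.

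The median log2 fold change of the 10 was 0.09 in S versus G1, -0.20 in G2M versus S and -0.22 in G2M versus G1, beside 0.08, -0.10 and -0.14 over all 25364 genes. With upper-quartile factors the median of all genes moved to -0.10, -0.14 and -0.36. The split of all genes moved with it, from 3526 risen and 1847 fallen to 2399 and 3026 in S versus G1, and from 5882 and 4344 to 4443 and 5650 in G2M versus G1. Among the members that scaling left 1 risen and 2 fallen in S versus G1 and 3 risen and 6 fallen in G2M versus G1.

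**Figure D3:**
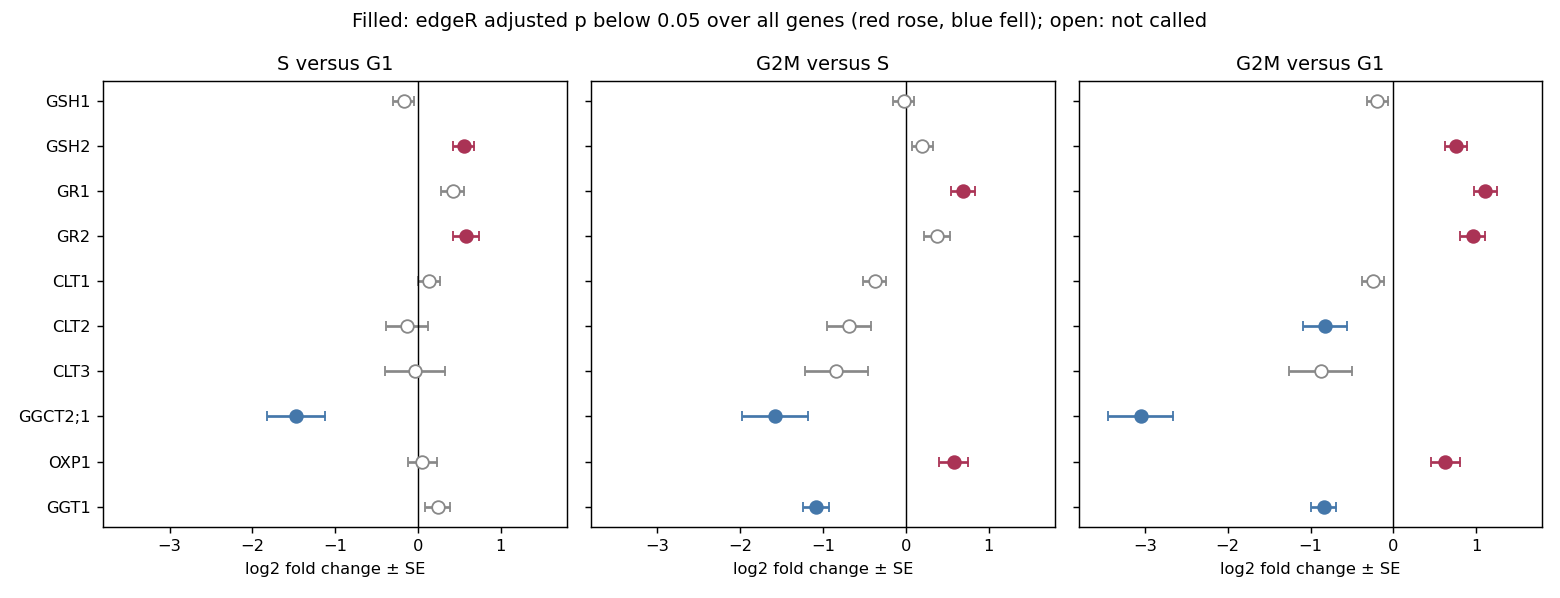
Log2 fold change ± SE of the 10 glutathione genes in the 3 comparisons of gates (horizontal axis, 1 panel per comparison, edgeR), filled where the adjusted p over all genes was below 0.05. The right panel shows GSH2, GR1, GR2 and OXP1 above 0 and GGCT2;1 at -3.05, the lowest value of the set.

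Markers of other tissues moved with these genes in some comparisons and apart from them in others. All 4 root cap markers and all 4 phloem markers fell in G2M versus G1, the comparison in which GGCT2;1, GGT1 and CLT2 fell. In G2M versus S, where GGCT2;1 and GGT1 fell, the 4 root cap markers fell and 1 of the 4 phloem markers fell. In S versus G1, where GGCT2;1 fell, 3 of 4 markers of each list fell. GGT1 (log2 0.24) and CLT2 (-0.14) were not called there, and both GGT1 libraries of S were above those of G1. Of the 5 root meristem markers, SCR (4.02-fold), SHR (2.65-fold) and PLT2 (1.61-fold) rose in G2M versus G1 while WER, a regulator of non-hair epidermal cells, fell (1.796-fold higher in G1, no call with GC and length offsets) and PLT1 was not called (edgeR adjusted p = 0.435). From G1 to S PLT2 and SHR rose and WER fell, and from S to G2M SCR rose. The part of these cells, of the mitochondrial share and of library depth in the results was not tested. The 5 mitosis markers rose with GSH2 and GR2 in S versus G1 and with GSH2, GR1, GR2 and OXP1 in G2M versus G1, but none was called in G2M versus S, where GR1 and OXP1 rose.

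Around the 10 members, 60 other genes of the pathway were counted, of which 59 were tested (GGT3 did not pass the filter). Of these, 12 rose and 4 fell in S versus G1 (median log2 0.10), beside 13.9% and 7.28% of all genes. In the step from S to G2M 10 rose and 6 fell (0.17), beside 9.46% and 10.1%, and in G2M versus G1 24 rose and 10 fell (0.31), beside 23.2% and 17.1%. On leaving out 1 library at a time these counts moved up and down in each comparison, and so did the counts over all genes. The single values that follow are for G2M versus G1, the comparison in which the pathway counts moved least. Those of the other comparisons come after them.

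The 19 genes of sulfate uptake and cysteine supply split: 6 rose and 5 fell in G2M versus G1, and 6 risen and 5 or 6 fallen were counted under each of the 17 alternatives (23.2% of all genes rose and 17.1% fell). SIR, the plastid sulfite reductase, had 206 and 188 CPM in G1, 315 and 405 in S, then 556 and 537 in G2M. It rose gate by gate, by 1.48 ± 0.14 in all (edgeR adjusted p = 3.54e-06). With it rose OASB and OASC, which make cysteine in plastids and mitochondria, and the ATP sulfurylases APS1, APS2 and APS3, at log2 values of 0.58 to 1.095. APR3, one of the plastid reductases of activated sulfate, had 583 and 591 CPM in G1, 540 and 592 in S, then 255 and 267 in G2M. Its libraries in G1 and S overlapped, and those of G2M were apart. It fell by 1.17 ± 0.11 from G1 to G2M (edgeR adjusted p = 5.51e-06). Also lower in G2M than in G1 were APR1 (-1.27 ± 0.17), the high-affinity root sulfate transporter SULTR1;2 (-1.30 ± 0.17), the serine acetyltransferase SERAT2;1 (-1.26 ± 0.13) and OASA1, which makes cysteine in the cytosol (-0.91 ± 0.12), the largest edgeR adjusted p of these 4 being 6.33e-05. In S versus G1, 3 of the 19 rose and 2 fell, beside 13.9% and 7.28% of all genes. From S to G2M 2 rose and 4 fell, beside 9.46% and 10.1% of all genes. On leaving out 1 library the counts of these 2 comparisons were not stable and moved up and down, as did the counts over all genes.

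The 14 genes of NADPH supply and thioredoxin reduction counted 10 risen and 0 fallen in G2M versus G1, where 23.2% of all genes rose and 17.1% fell, with a median log2 fold change of 0.93 beside -0.14 over all genes. The 10 were G6PD2, G6PD3, G6PD4, PGD1, PGD3, CICDH, NADP-ME2, NTRA, NTRB and NTRC, and 8 to 11 of the 14 rose under the 17 alternatives. PGD3, a 6-phosphogluconate dehydrogenase, had 67.7 and 64.8 CPM in G1, 94.0 and 106 in S, then 151 and 147 in G2M. It rose at each step, in all by 1.17 ± 0.12 (edgeR adjusted p = 9.51e-06). G6PD3, a plastid glucose-6-phosphate dehydrogenase, rose by 1.18 ± 0.15 (edgeR adjusted p = 5.6e-05). In G2M versus S 5 of the 14 rose, beside 9.46% of all genes. In S versus G1 4 rose, beside 13.9% of all genes. Neither count was stable on leaving out 1 library: both moved up and down, as did the counts over all genes.

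Of the 9 other breakdown genes tested, 3 rose and 3 fell in G2M versus G1, beside 23.2% and 17.1% of all genes. GGT4, the vacuolar transpeptidase, rose by 1.04 ± 0.16 (edgeR adjusted p = 0.000242), and LAP1, a leucine aminopeptidase, by 0.67 ± 0.13 (adjusted p = 0.000956). PCS1, phytochelatin synthase, had 166 and 152 CPM in G1, 156 and 171 in S, then 79.5 and 88.2 in G2M. Like GGT1 it was clearly lower in the G2M libraries, having fallen by 0.92 ± 0.12 from G1 (edgeR adjusted p = 7.42e-05) and by 0.96 ± 0.13 from S (adjusted p = 0.000272). GGT2, the other apoplastic transpeptidase, also fell from G1 to G2M (-0.91 ± 0.20, edgeR adjusted p = 0.00254), a call lost without G2M replicate 2 (-0.68, adjusted p = 0.0647). The gamma-glutamyl peptidase gene GGP1 rose by 0.42 ± 0.15 (edgeR adjusted p = 0.0409) and GGCT2;3 fell by 0.72 ± 0.25 (adjusted p = 0.0366). GGP1 was not called without G1 replicate 1, G1 replicate 2 or G2M replicate 2 (log2 0.46, 0.38 and 0.19, edgeR adjusted p of 0.113 to 0.484), and GGCT2;3 was not called without any of the 4 libraries (-0.86 to -0.59, adjusted p of 0.102 to 0.257). Upper-quartile factors (0.20), thinned libraries (0.32) and limma on TPM (0.28) also ended the call of GGP1, which stood at 0.71 with GC and length offsets and 0.64 without G2M replicate 1. The call of GGCT2;3 also ended with limma-voom (-0.69) and with offsets (-0.45).

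Of 13 glutaredoxins, dehydroascorbate reductases and nitrosoglutathione reductase, 2 rose and 2 fell in G2M versus G1, beside 23.2% and 17.1% of all genes. GRXC1, a dithiol glutaredoxin, had 19.8 and 19.0 CPM in G1, 8.28 and 7.53 in S, then 5.66 and 5.76 in G2M. Most of its drop lay between G1 and S, and it fell in all by 1.76 ± 0.20 (edgeR adjusted p = 1.99e-05). GRXS17, a cytosolic and nuclear monothiol glutaredoxin, rose by 1.095 ± 0.14 (edgeR adjusted p = 6.07e-05). GSNOR rose by 0.49 ± 0.12 (edgeR adjusted p = 0.00438), not called without G1 replicate 2 (0.42, adjusted p = 0.0755) or G2M replicate 1 (0.51, adjusted p = 0.055) and at 0.27 with upper-quartile factors, where it was called. GRXS13 fell by 1.86 ± 0.45 (edgeR adjusted p = 0.00547), not called without G1 replicate 1 (-1.76, adjusted p = 0.059) or G2M replicate 2 (-1.48, adjusted p = 0.083).

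Of 4 other transporters, the vacuolar conjugate pumps ABCC1 and ABCC2 and the mitochondrial exporter ABCB25 rose in G2M versus G1, by 0.44 ± 0.13 (edgeR adjusted p = 0.0183), 0.47 ± 0.16 (adjusted p = 0.0318) and 0.61 ± 0.15 (adjusted p = 0.00619), but with GC and length offsets ABCC1 and ABCC2 turned sign (-0.025 and -0.032) and ABCB25 stood at 0.25, none being called (adjusted p of 0.165 to 0.892). Upper-quartile factors also ended the calls of ABCC1 (0.22) and ABCC2 (0.25) and moved ABCB25 to 0.40, as limma on TPM did for ABCC1 (0.31) and ABCC2 (0.33) and thinned libraries for ABCC2 (0.36). None of the 3 was called without G1 replicate 2 (0.45, 0.33 and 0.46, edgeR adjusted p of 0.0927 to 0.252) or without G2M replicate 1 (0.33, 0.26 and 0.56, adjusted p of 0.073 to 0.375), and ABCC1 was not called without G1 replicate 1 (0.43, adjusted p = 0.106). The oligopeptide transporter OPT6, at 2.18 to 4.86 CPM, was not called in any comparison.

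In S versus G1, 4 of the 16 named calls on these lists held without any 1 library: SIR rose by 0.87 ± 0.14 and OASB by 0.73 ± 0.13, APR1 fell by 0.80 ± 0.16 and GRXC1 by 1.28 ± 0.20 (largest edgeR adjusted p 0.00388). LAP1 (0.51), GGT4 (0.56), OASC (0.38), ABCB25 (0.60), ABCC1 (0.44), GRXS17 (0.60), G6PD2 (0.79), G6PD3 (0.76), PGD3 (0.59) and NTRA (0.49) also rose, and SERAT2;1 (-0.51) and GRXS13 (-1.62) fell. Of these 12, SERAT2;1 was not called without G1 replicate 1 (-0.42), and the other 11 were not called without G1 replicate 2. Leaving out either G1 library also lowered the number of calls over all genes. Without S replicate 2, ABCC1 was at 0.28 (not called) and GRXS17 at 0.38 (called). GC and length offsets ended 8 of the 12 calls, with GGT4 at 0.28, LAP1 at 0.30, OASC at 0.21, ABCC1 at 0.011, ABCB25 at 0.25, GRXS17 at 0.38, PGD3 at 0.24 and NTRA at 0.31 (adjusted p of 0.061 to 0.968), and left SIR at 0.47 and G6PD3 at 0.49, both called. Upper-quartile factors ended those of GGT4 (0.38), OASC (0.19) and ABCC1 (0.25) and left LAP1 at 0.32 and NTRA at 0.30, both called. RLE factors ended those of OASC (0.33) and ABCC1 (0.39), thinned libraries that of OASC (0.29), and a fit of only the 4 libraries compared ended 7 of the 12 (adjusted p of 0.062 to 0.211).

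Between S and G2M, PCS1, SULTR1;2 (-1.04 ± 0.17) and APR3 (-1.12 ± 0.11) fell and were called without any 1 library. SIR (0.60), APS1 (0.53), GSNOR (0.49), GRXS17 (0.49), GRXS15 (0.40), PGD1 (0.70), PGD3 (0.57), G6PD4 (0.96), CICDH (0.40) and NADP-ME2 (0.61) also rose, and GGT2 (-1.01), SERAT2;1 (-0.75) and OASA1 (-0.58) fell. Of these 13, SERAT2;1 was not called without G2M replicate 1 (-0.65, edgeR adjusted p = 0.0682), and the other 12 were not called without G2M replicate 2 (adjusted p of 0.0575 to 0.628), where NADP-ME2 stood at 0.16, against 0.98 without G2M replicate 1. APS1 was at 0.26 without S replicate 1 (not called) and 0.91 without S replicate 2 (called), and GRXS17 at 0.31 and 0.74 in the same fits (not called and called). Limma on TPM ended the calls of APS1, GRXS15, G6PD4, CICDH and NADP-ME2 (0.26 to 0.66, adjusted p of 0.0501 to 0.156), as did a fit of only the 4 libraries compared. Upper-quartile factors ended those of G6PD4 (0.92) and NADP-ME2 (0.58), thinned libraries that of G6PD4 (0.97) and offsets that of NADP-ME2 (0.59). Leaving out either G2M library also lowered the number of calls over all genes in this comparison. Among the other transporters, ABCC2 (0.17 ± 0.16) and OPT6 (-0.45 ± 0.46) had the smallest p in G2M versus S and were not called (edgeR adjusted p of 0.454 and 0.51).

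**Figure D4:**
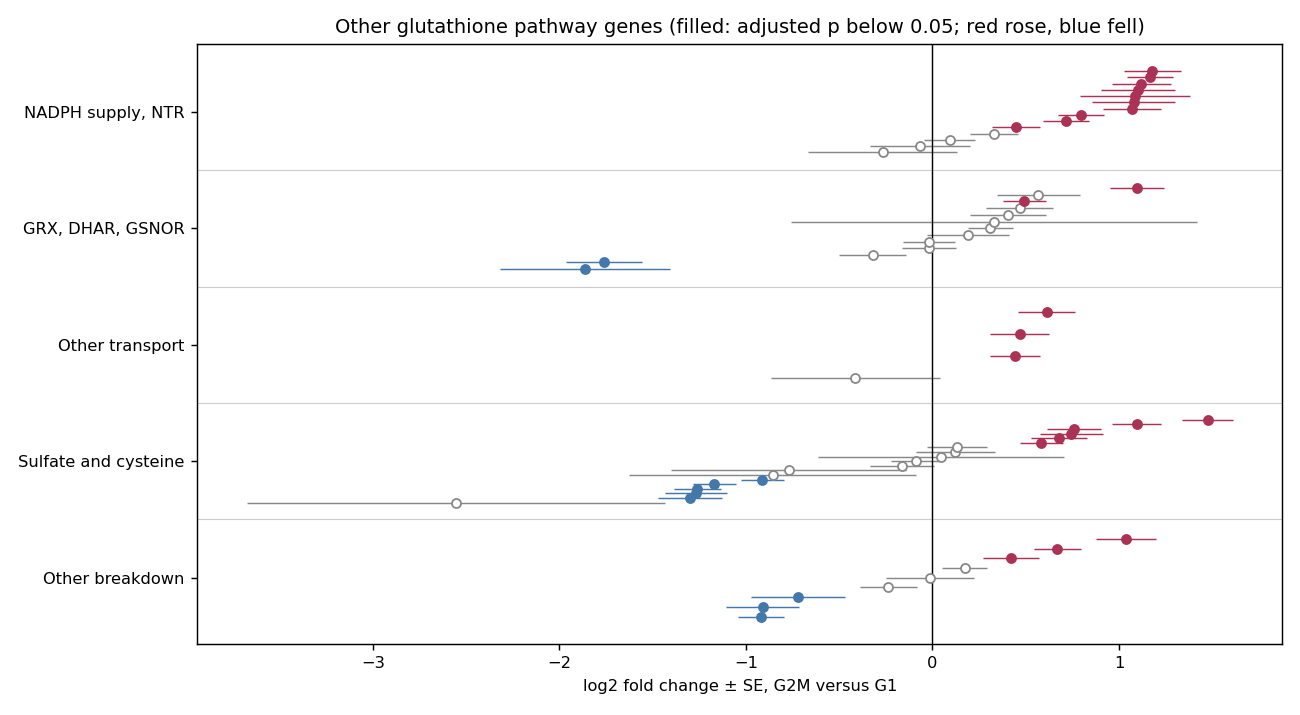
Log2 fold change ± SE in G2M versus G1 of the 59 other tested pathway genes (horizontal axis), in 5 rows by role, filled where the edgeR adjusted p was below 0.05. The row of NADPH supply and thioredoxin reductases has 10 filled points, all above 0, while the sulfate and cysteine row has 6 filled above 0 and 5 below.

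By likeness of pattern over the 6 libraries, each called member was set beside the 5448 tested nuclear genes with a symbol and a mean of at least 10 CPM, using the root mean square difference of log2 CPM centred on each gene's mean. GSH2 lay nearest to PTAC4 (0.0185), ENOC (0.0252) and MTO1 (0.0270). GR1 lay nearest to PCN (0.0414), LTA2 (0.0516) and RP1 (0.0607), and GR2 to SVR1 (0.0640), GATB (0.0659) and CSN6B (0.0743). These distances were several times smaller than those of the breakdown gene that moved most. For GGCT2;1 the nearest were the tau-class glutathione transferase GSTU9 (0.229), IGMT2 (0.291) and MLP34 (0.293). The distance is not scaled, so it grows with the size of a gene's change and with counting noise. GGCT2;1 was itself below the 10 CPM asked of candidates. CLT3, weakly expressed and not called in any comparison, lay as far as 0.213 from its nearest gene, GSTU12. The larger distances of GGCT2;1 are therefore not read as a trait of that gene. GGT1 lay nearest to CSLC04 (0.0961), WRKY6 (0.103) and CLC-A (0.108), OXP1 to NRPD1B (0.0956), emb1579 (0.100) and EIF4G (0.102), and CLT2 to GTL1 (0.114), SDG14 (0.114) and CIPK1 (0.116).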

How the data were processed

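RNA counts per gene were deposited by the authors as whole-number counts for 6 libraries, 2 per gate. Per the labels' protocols, cDNA was made with a full-length kit from sorted protoplasts. Per the submitters' processing notes, reads were handled with Trimmomatic 0.39, HISAT2 2.2.1 and featureCounts against TAIR10. Of featureCounts, the version, strand setting and treatment of shared reads were not stated. A companion table named for TPM was not used, because its columns sum to different totals far below those of TPM. TPM was recomputed from the counts and TAIR10.1 exon lengths.

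Counts were fitted in 1 edgeR 4.0.16 quasi-likelihood model of all 6 libraries (R 4.3.3, TMM factors, filterByExpr, 25364 of 32833 genes kept), with no covariate. P-values were adjusted by Benjamini-Hochberg over all tested genes of a comparison, a gene being called below 0.05. SE is the absolute log2 fold change divided by the square root of F. Printed CPM is TMM-scaled. Common dispersion was 0.0555. On simulated counts the test recovered 63%, 53% and 55% of 2-fold changes (S against G1, G2M against S and G2M against G1), with 13, 15 and 7 false calls among 24421, 24443 and 24425 unchanged genes. Each simulation changed 100 genes 2-fold and 100 genes 4-fold and left all others equal between gates. In the data 19.6% to 40.3% of genes were called, so these rates do not carry over to the real comparisons. The libraries of a gate differed beyond sampling noise, with chi-square values of 6.30 to 31.2 per degree of freedom. Near copies were sought with blastn 2.17.0.

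All 10 members are named. Of each other list, the 2 genes of smallest p per comparison and every called gene where 5 or fewer were called in a direction are named. A few further genes of the lists were named after their values were seen. Members, lists and motifs were chosen with earlier results of these data known. In all, 17 alternative fits were run, with limma 3.58.1 and DESeq2 1.42.0 among them.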

Additional observations from a re-analysis of the deposited data

How the results depend on the processing

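Of the calls on the 10 members, none changed sign in the 17 alternatives, and the values of those lost or gained stand beside each gene. Among uncalled differences, the sign turned in S versus G1 for CLT1 (-0.052 with upper-quartile scaling, -0.11 with offsets for GC content and length), OXP1 (-0.12 and -0.40 with the same, -0.037 with thinned libraries, -0.030 with only 4 libraries), CLT3 (0.044 with limma on TPM, 0.13 with limma-voom, 0.048 with the replicate block), CLT2 (0.043 with limma-voom) and GGT1 (-0.042 with offsets), and in G2M versus S for GSH1 (0.024 with RLE factors, 0.081 with offsets, 0.025 with DESeq2). With offsets, ABCC1 and ABCC2 were at -0.025 and -0.032 in G2M versus G1. Without 1 library at a time, uncalled differences crossed 0 for OXP1 (-0.17 to 0.30), CLT3 (-0.49 to 0.60) and CLT2 (-0.49 to 0.074) in S versus G1, and for GSH1 (-0.022 to 0.020), OPT6 (-0.94 to 0.17) and ABCC2 (-0.017 to 0.38) in G2M versus S.

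Members risen in S versus G1 numbered 1 with upper-quartile factors, thinned libraries or offsets and 0 with only 4 libraries, and 2 fell with upper-quartile factors. In G2M versus S, 1 rose with thinned libraries or limma on TPM, and 1 fell with only 4 libraries. In G2M versus G1, 6 fell with upper-quartile factors and 5 with limma on TPM or offsets. Over all genes 5650, 5384 and 4102 fell there under these 3 settings, against 4344 in the main fit. Without 1 library at a time, fewer members were called in some fits of each comparison, and more fell in G2M versus S in others. The counts over all genes moved in these fits as well. Of the other pathway genes, 4 rose with offsets and 5 with only 4 libraries in S versus G1, where 9 fell with upper-quartile factors or limma-voom and 7 with offsets. Over all genes in S versus G1, 2287 rose with offsets and 1999 with only 4 libraries, against 3526 in the main fit. There 3026 fell with upper-quartile factors, 4174 with limma-voom and 1898 with offsets, against 1847. In G2M versus S 16 of the other pathway genes rose with RLE factors or offsets, 18 with limma-voom or DESeq2, and 5 with limma on TPM or only 4 libraries. Over all genes 3026 rose there with RLE factors, 3252 with offsets, 3994 with limma-voom and 3590 with DESeq2, against 2399. With limma on TPM 1660 rose, and 1898 with only 4 libraries. These fits did not all test the same number of genes. Without 1 library, the counts of other pathway genes moved up and down, as did those over all genes. The cause of these moves was not tested.

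Deviations of same-numbered libraries correlated at -0.06 to 0.03 over 25364 genes. With 2 libraries per gate this correlation cannot decide whether same-numbered libraries were prepared together. With the replicate block, the members called were 2 risen and 1 fallen, 2 and 2, and 4 and 3, as without it, and other pathway genes 12 and 4, 7 and 7, and 24 and 9. Among pathway genes named in the text, the block ended the calls of GRXS15, G6PD4 and NADP-ME2 in G2M versus S (adjusted p of 0.0505 to 0.0581) and of GGCT2;3 in G2M versus G1 (adjusted p = 0.054). The block left 3336 risen and 1680 fallen genes in S versus G1, 2113 and 2135 in G2M versus S, and 5709 and 3951 in G2M versus G1. At 20 and 24 counts in G2M, the level of GGCT2;1 there is limited by depth, and a gate of 2 libraries limits every SE.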
